A study of Mus musculus with 25 samples.

Results

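The probes described here, 60 in all, had their highest pooled level in lung regions labelled peri-injured, both in CD68 macrophage segments and in the non-immune tissue of the same regions. They were 60 of the 20175 probes counted by spatial RNA profiling on the GeoMx platform, in which barcoded probes are bound to RNA on a tissue section and their barcodes are released from chosen areas. The members were chosen by the measured values themselves. Counts were pooled by compartment and region class, and v was taken as the log2 of CPM plus 20, where CPM is a probe's count divided by the pooled total and multiplied by 1000000. Of the 1882 probes with at least 60 counts over the CD68 segments, 1627 had a mean v that differed by at most 0.7 between the compartments. For each of these, m was the smallest of 4 differences, the peri-injured level minus the injured level and minus the healthy level in each compartment. The 60 probes with the highest m were kept and ranked by m, with rank 1 the highest. All of them passed the count minimum, because the choice required it, and 158 probes in all reached the minimum m of 0.4. The count minimum included the peri-injured segments, so that a high level there helped a probe to reach it. The probe at rank 2, for one, had 37 of its 78 CD68 counts in peri-injured region 10. Every peri-injured excess given here is therefore a description of how the probes were chosen, and calls on it are counted without reading anything from them.

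The sections came from male mice carrying the SP-C I73T mutation. In this line tamoxifen activates a recombinase expressed from the Rosa26 locus, which removes a neomycin cassette from the surfactant protein C gene and raises expression of the mutant protein in alveolar type II cells. Healthy regions 1, 3 and 13 came from 1 control mouse at day 0, labelled untreated, with corn oil named as the control gavage. Peri-injured regions 6, 9, 10 and 12 and injured regions 4, 5, 7, 8 and 11 came from 1 mouse 14 days after oral tamoxifen. The labels give 175 mg/kg for it. For region 4 this is less sure, since the supplementary segment annotation gives it the tissue number of the control lung. It was used as injured, as labelled. Each region was collected as a CD68 segment, the cells positive for CD45 and CD68, and a non-immune segment, the DNA-positive area without CD45. This gave 24 segments, and a reaction without tissue held 1 count and none of the 60 probes. Regions of a class are technical replicates of 1 mouse, and a p-value over them measures the spread within that mouse, so that it is too small as evidence on animals. A difference between healthy regions and the others cannot be told apart from a difference between the 2 mice. In segments of tissue, fewer cells of a type and less RNA per cell cannot be told apart either.

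Surfactant protein C is made by alveolar type II cells, which line the air sacs and renew the alveolar epithelium. Its mutant form is mishandled inside these cells, and patients who carry such mutations can develop interstitial lung disease. CD68 is a lysosomal glycoprotein used to mark macrophages, which take up debris and surfactant in the air sacs and change their expression when the epithelium is damaged. The files name each probe only by an identifier of its barcode, and no gene symbol or sequence could be joined to it from the material at hand. Gene functions, pathways and cell type markers were therefore not analysed here, and the labelled cell types were not checked against markers. Rank 1 is the probe RTS0066800 and rank 2 is RTS0075947, and the others are given by rank. Counts depend on the probe as well as on the RNA, so that levels were compared between segments and not between probes.

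Total counts ranged from 21955 in peri-injured region 9 to 119493 in injured region 5 among CD68 segments, and from 80259 to 671249 among non-immune segments. Background was estimated from the 2018 least abundant probes. It accounted for 26.9% to 35.0% of the counts in the 4 peri-injured CD68 segments and 36.9% to 40.5% in the 5 injured ones, without overlap. In healthy CD68 segments it was 29.1% to 38.2%. The non-immune segments held 30.0% to 33.8% in peri-injured, 37.2% to 40.5% in injured and 36.4% to 46.7% in healthy regions. Background was thus lower in peri-injured than in injured regions in both compartments, and lower than in healthy regions in non-immune segments. In CD68 segments the peri-injured and healthy ranges overlapped. The values with background removed are given beside the summed level.

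The 60 probes together took more of the counts in every peri-injured segment than in any other segment of its compartment. In CD68 segments their summed share was 2.64%, 1.98%, 2.75% and 2.32% in peri-injured regions 6, 9, 10 and 12. It was 0.905%, 0.961% and 0.922% in healthy regions 1, 3 and 13. In injured regions 4, 5, 7, 8 and 11 it was 0.562%, 1.01%, 0.705%, 0.545% and 1.08%. The 3 healthy values lay close together, whereas the injured values spread on both sides of them. The class means were 2.42% ± 0.345 (SD, n = 4 regions) in peri-injured, 0.781% ± 0.252 (n = 5) in injured and 0.929% ± 0.0288 (n = 3) in healthy regions, a ratio of 3.10 to injured and 2.61 to healthy regions.

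**Figure D1:**
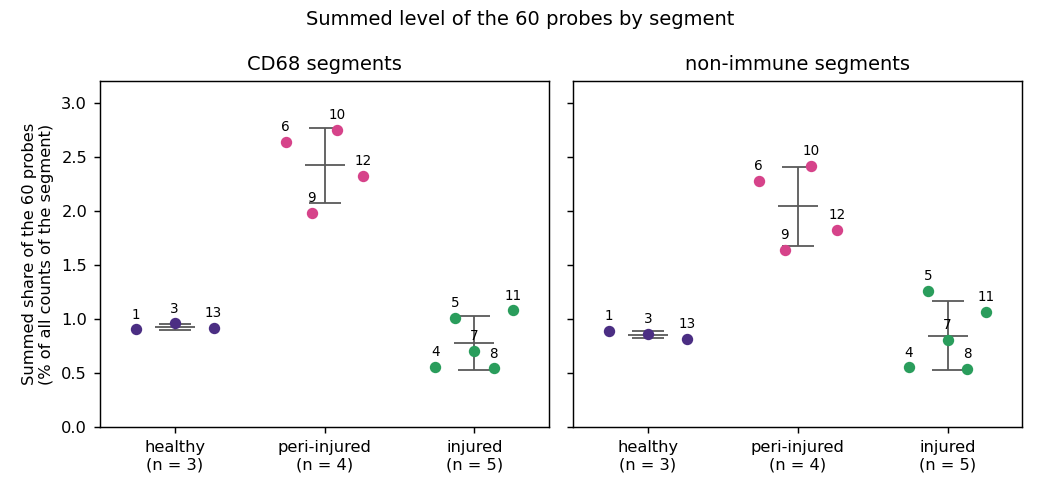
Summed share of the 60 probes, in percent of all counts of a segment, for CD68 segments (left) and non-immune segments (right). Each point is 1 segment with its region number, and the bars give the class mean and SD over regions. The 4 peri-injured points lie above all other points in each panel, with region 9 the lowest of the 4, and injured regions 5 and 11 lie above injured regions 4, 7 and 8.

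The non-immune segments gave a similar picture at a somewhat lower peri-injured level. The summed share was 2.28%, 1.64%, 2.41% and 1.83% in peri-injured regions 6, 9, 10 and 12. In healthy regions 1, 3 and 13 it was 0.891%, 0.862% and 0.821%. In injured regions 4, 5, 7, 8 and 11 it was 0.554%, 1.26%, 0.808%, 0.542% and 1.07%. The gap between the lowest peri-injured and the highest other segment was 0.378 percentage points here and 0.900 in CD68 segments. The means were 2.04% ± 0.365 in peri-injured, 0.848% ± 0.318 in injured and 0.858% ± 0.0349 in healthy regions, with ratios of 2.41 and 2.38. With the background removed, the ratios to injured and healthy regions were 2.91 and 2.65 in CD68 segments and 2.39 and 2.35 in non-immune segments. After thinning every segment to the lowest total of its compartment they were 3.14 and 2.55, and 2.41 and 2.31. These ratios hold the values that chose the probes.

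The same measure was taken in regions that the choice had not used. For each region in turn the rule was applied without it, and the median v of the 60 probes so chosen was set against the median v of all eligible probes in the region left out. In peri-injured CD68 segments 6, 9, 10 and 12 the chosen probes lay 1.25, 1.40, 0.872 and 1.19 above that median on the log2 scale. In the other 8 CD68 segments the difference was between 0 and 0.459. It was exactly 0 in healthy regions 1 and 13 and injured regions 4, 7 and 8, where both medians fell on the same value of v. Low whole counts fall on a few steps, most coarsely in peri-injured region 9, where the total was 21955 counts. In non-immune segments the difference was 0.943, 0.837, 0.990 and 0.985 in peri-injured regions 6, 9, 10 and 12. It ranged from -0.168 to 0.261 in the other 8. The gap between the lowest peri-injured and the highest other region was 0.414 in CD68 segments (SD of the 4 peri-injured regions 0.222) and 0.576 in non-immune segments (SD 0.0710). Each peri-injured region was above all others here, but the 3 remaining peri-injured regions of the same mouse made the choice. The values are therefore a description of technical replicates, and no support is drawn from them. Of the 60 probes chosen without a region, 46 (without region 10) to 56 (without region 7 or 11) were among the 60 described here.

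**Figure D2:**
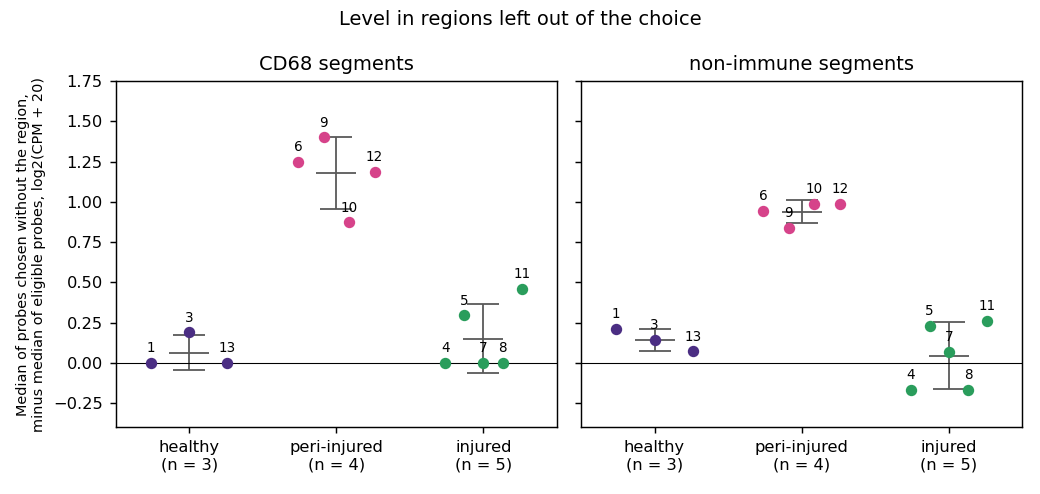
Level of the probes chosen without a region, in the region left out: the median of log2(CPM + 20) over those 60 probes minus the median over all eligible probes there. Each point is 1 segment with its region number, and the bars give the class mean and SD. Peri-injured segments lie between 0.872 and 1.40 (CD68) and between 0.837 and 0.990 (non-immune), and the highest other segment is injured region 11 in both panels, at 0.459 and 0.261.

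Among the 60 probes m fell from 1.74 at rank 1 over a median of 0.817 to 0.645 at rank 60. Over all 1627 eligible probes the median of m was -0.120. Ranks 58, 59 and 60 had an m of 0.662, 0.661 and 0.645, and the next probes, ranks 61, 62 and 63, had 0.644, 0.640 and 0.635, so that the choice ended at no visible step. The limiting difference was the non-immune excess over healthy regions for 20 probes and over injured regions for 17. It was the CD68 excess over healthy regions for 15 and over injured regions for 8. The median excess over injured regions was 1.40 in CD68 and 1.05 in non-immune segments, against 0.300 and 0.174 over all eligible probes. Over healthy regions it was 1.26 and 1.03, against 0.162 and 0.146.

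**Figure D3:**
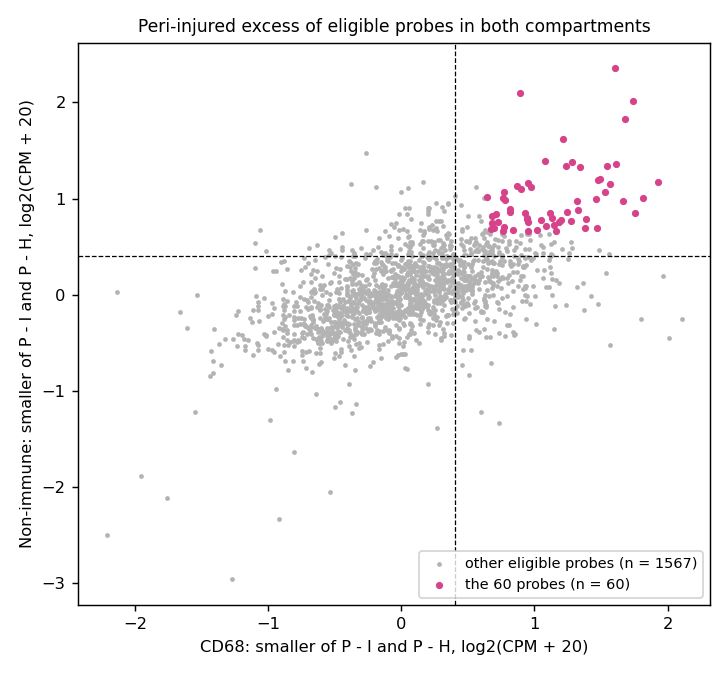
Peri-injured excess in the CD68 (horizontal) and the non-immune compartment (vertical) for the 1627 eligible probes, each the smaller of the peri-injured minus injured (P - I) and peri-injured minus healthy (P - H) differences in log2(CPM + 20) of pooled counts. The 60 probes (pink) take the upper right corner by construction, dashed lines mark the minimum of 0.4, and no gap separates them from the other probes (grey).

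RTS0066800, rank 1, differed most from the other ranks in its contrast with healthy lung, by 4.06 in CD68 and 3.13 in non-immune segments on the log2 scale. In CD68 segments it was at 1304, 1230, 1274 and 515 CPM in peri-injured regions 6, 9, 10 and 12, the last resting on 17 counts. In healthy regions 1, 3 and 13 it was at 22.9, 107 and 0 CPM, and the 0 allowed up to 83.5 CPM (3 counts, for counting error only). Injured regions 5 and 11 held 577 and 535 CPM, more than peri-injured region 12, whereas injured regions 4, 7 and 8 held 162, 148 and 83.6. The CD68 groups therefore overlapped, with injured lung between healthy and peri-injured lung. In non-immune segments RTS0066800 was at 557, 354, 1117 and 313 CPM in regions 6, 9, 10 and 12. It was at 73.5, 64.2 and 37.4 in healthy and 60.4, 308, 153, 99.6 and 185 in injured regions. The lowest peri-injured segment lay just above the highest injured one, region 5.

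RTS0075947, rank 2, took its place from region 10. In CD68 segments it was at 413 CPM there and at 118, 45.5 and 30.3 in peri-injured regions 6, 9 and 12, where regions 9 and 12 rested on 1 count each. Healthy regions 1, 3 and 13 held 68.8, 17.8 and 55.7 CPM, and injured regions 4, 5, 7, 8 and 11 held 27.0, 50.2, 80.9, 27.9 and 71.3. The non-immune level was 495 CPM in region 10, 199 in region 6, and 42.9 and 49.7 in regions 9 and 12. The other non-immune segments ranged from 0, in healthy region 13 where up to 37.4 CPM was possible, to 94.3 in injured region 11. Regions 9 and 12 were thus no higher than healthy and injured lung in either compartment. Region 10 alone gave 68.1% of the summed peri-injured CPM of RTS0075947 in CD68 and 62.9% in non-immune segments, the highest share of all 60 probes in each.

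Rank 3 was higher in the non-immune than in the CD68 compartment. In non-immune segments it was at 710, 589, 538 and 785 CPM in peri-injured regions 6, 9, 10 and 12. No healthy or injured region reached more than 207 CPM, the value of injured region 11. In CD68 segments it was at 321, 455, 112 and 545 CPM in the same 4 regions and between 17.8 and 139 CPM elsewhere. Region 10 therefore overlapped with healthy region 13, the highest of the others.

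Rank 4 separated the groups in CD68 segments, where peri-injured regions 6, 9, 10 and 12 held 470, 273, 402 and 545 CPM. Healthy regions held 115, 89.0 and 27.8 and injured regions 122, 134, 175, 125 and 95.1. In non-immune segments the peri-injured values were 812, 318, 934 and 596 CPM. Injured regions held 151, 431, 294, 140 and 381 CPM and healthy regions 58.8, 100 and 62.3. Injured regions 5 and 11 thus lay above peri-injured region 9, and every injured region lay above every healthy one.

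Ranks 5 and 6 had a wider gap to injured than to healthy lung in CD68 segments, with an excess of 2.16 and 2.70 over injured and 1.54 and 1.34 over healthy regions on the log2 scale. Rank 5 was at 534, 501, 726 and 333 CPM in peri-injured CD68 segments 6, 9, 10 and 12, at 138, 178 and 251 in healthy and at 67.5, 117, 94.4, 97.5 and 178 in injured ones. Its non-immune level was 348, 271, 352 and 273 CPM in peri-injured, 103, 136 and 49.8 in healthy and 90.7, 183, 94.9, 74.2 and 148 in injured regions. Its peri-injured segments did not overlap with the others in either compartment. Rank 6 was at 663, 137, 927 and 727 CPM in peri-injured CD68 segments, 229, 338 and 223 in healthy and 54.0, 109, 67.4, 41.8 and 178 in injured ones. The 137 CPM of region 9 rested on 3 counts and lay below the healthy values. In non-immune segments rank 6 was at 505, 393, 439 and 398 CPM in peri-injured regions, 157, 177 and 162 in healthy and 53.7, 197, 99.5, 69.9 and 128 in injured regions, without overlap.

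**Figure D4:**
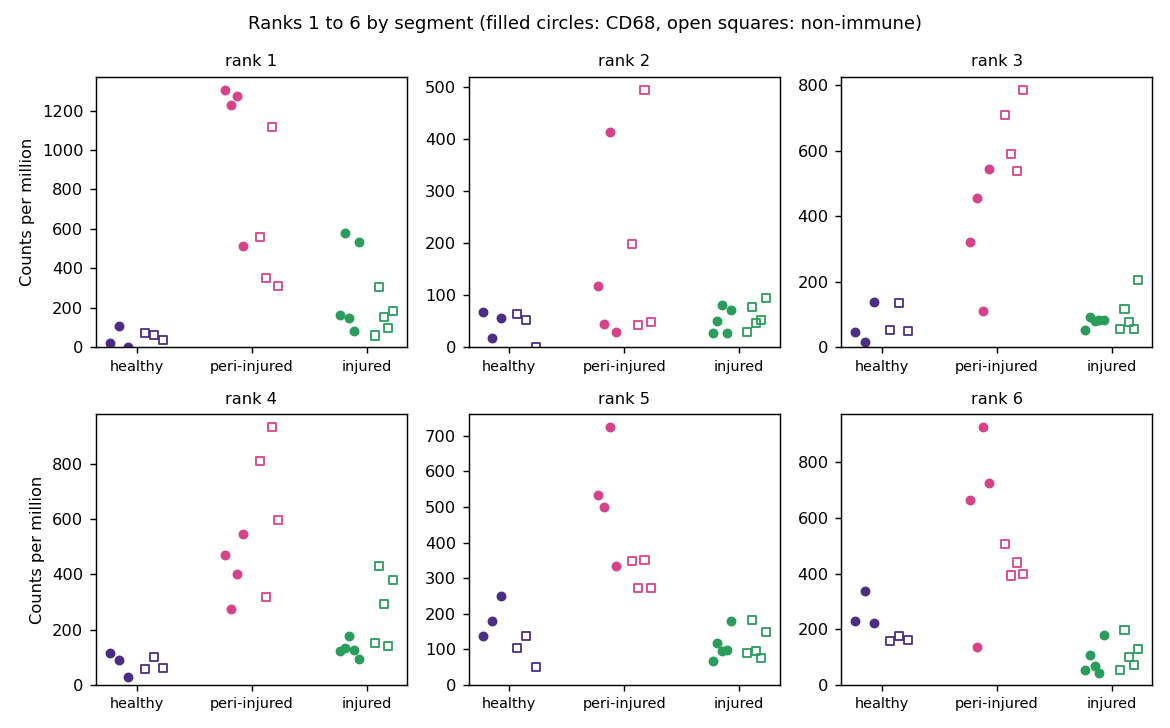
CPM of ranks 1 to 6 in each segment, with filled circles for CD68 and open squares for non-immune segments. Within a class, points follow the order of regions 1, 3, 13 (healthy), 6, 9, 10, 12 (peri-injured) and 4, 5, 7, 8, 11 (injured). Rank 5 shows no overlap in either compartment, and rank 2 is high in region 10 and at 118 and 199 CPM in region 6.

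The 2 probes with the most counts, ranks 21 and 26, had 5632 and 3538 over all segments and so the smallest counting error of the 60. Rank 21 was at 1389, 820, 1117 and 1151 CPM in peri-injured CD68 segments 6, 9, 10 and 12, at 665, 534 and 668 in healthy and at 297, 586, 540, 293 and 559 in injured ones. The non-immune values were 1876, 1493, 1895 and 1555 CPM in peri-injured, 833, 715 and 648 in healthy and 443, 1374, 639, 411 and 1063 in injured regions. Neither compartment showed an overlap, but injured region 5 came close to the peri-injured range in the non-immune segments. Rank 26 was at 1592, 1275, 1877 and 1423 CPM in peri-injured CD68 segments, 481, 748 and 835 in healthy and 203, 477, 175, 153 and 749 in injured ones. In non-immune segments it was at 1125, 907, 1137 and 1039 CPM in peri-injured, 593, 582 and 598 in healthy and 181, 640, 306, 169 and 474 in injured regions. For rank 26 the groups were again separate, with injured regions 4, 7 and 8 below all healthy regions in both compartments.

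Counted over the 60 probes, all 4 peri-injured segments lay above all 8 others for 31 probes in CD68 segments (7.70% of all 1882 probes with enough counts). In non-immune segments this held for 34 (9.46%), and in both compartments for 17 (2.13%). The choice used these differences, which fixes the direction of such counts. By the quasi-likelihood test of edgeR, adjusted over 1882 probes after Benjamini and Hochberg, 28 of the 60 were called higher in peri-injured than in injured CD68 segments (6.38% of all probes tested) and 9 higher than in healthy ones (2.28%). In non-immune segments 44 were called higher than in injured (13.2%) and 28 higher than in healthy regions (3.83%). None of the 60 was called lower in these 4 comparisons. The same segments and differences made the choice, so that nothing is read from the separation counts, from these calls or from their distance to the share over all probes. Without peri-injured region 6 or injured region 4 the CD68 count against injured lung was 17 and 18, with 68 and 79 over all probes. Without healthy region 1 the CD68 count against healthy lung was 3, with 13 over all probes. The non-immune count against healthy lung was 12, 11 and 15 without healthy region 1, 3 or 13. It was 15 and 13 without peri-injured region 6 or 10. Over all probes these counts were 31, 33 and 44, and 45 and 50. With TMM factors in place of upper-quartile factors, the median log2 fold change of all probes from injured to peri-injured regions moved from -0.20 to -0.03 in CD68 and from -0.25 to -0.05 in non-immune segments. All probes called in that comparison split into 120 higher and 223 lower, or 174 and 149 with TMM factors, in CD68 segments, and into 248 and 615, or 366 and 348, in non-immune segments.

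**Figure D5:**
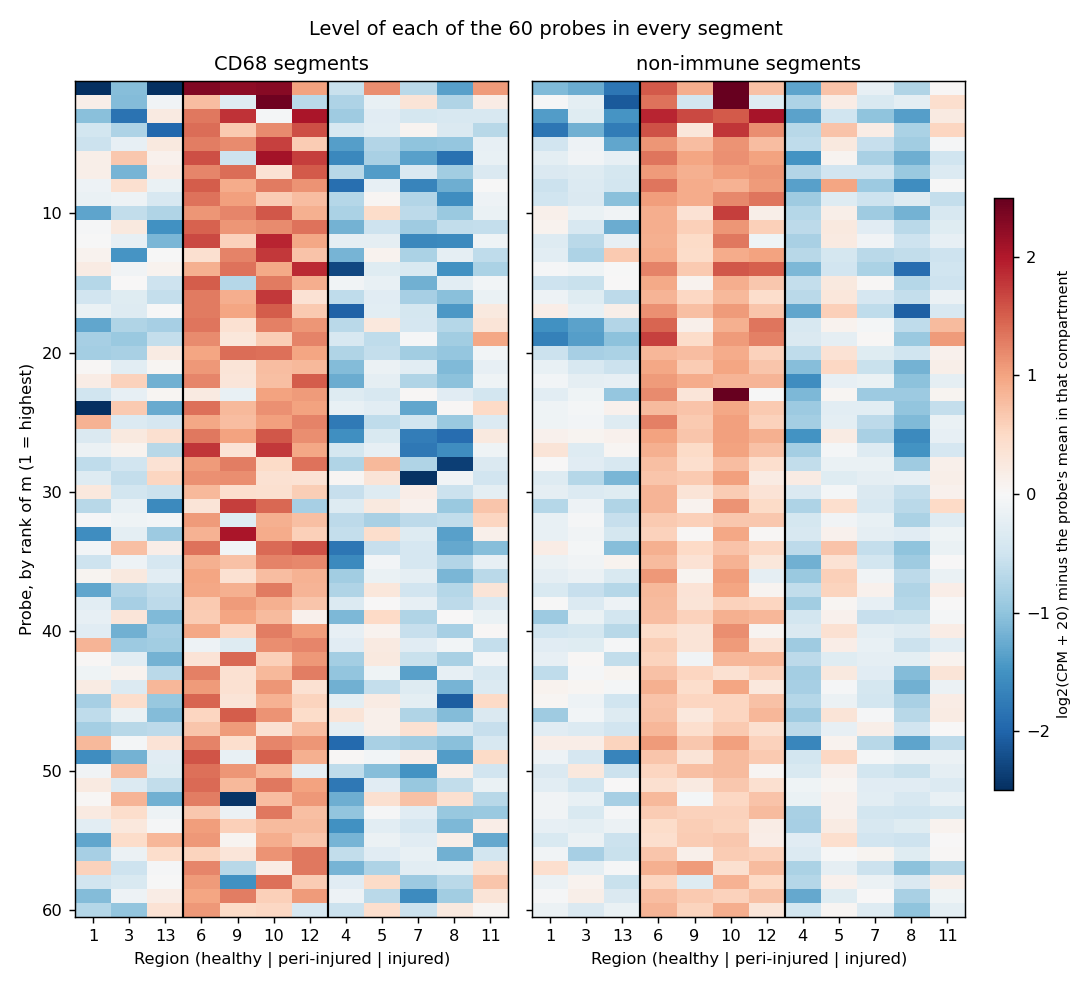
Level of each of the 60 probes (rows, by rank) in the 12 CD68 (left) and 12 non-immune segments (right), as log2(CPM + 20) minus the probe's mean in that compartment. Black lines part healthy, peri-injured and injured regions. The peri-injured columns are mostly red, with 10 and 2 probes highest in region 9 in CD68 and non-immune segments, and rank 2 stands out in region 10 of both.

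The choice set no direction between injured and healthy regions, although both entered it. The median difference from healthy to injured regions over the 60 probes was -0.13 in CD68 and -0.00070 in non-immune segments on the log2 scale, against -0.11 and -0.0020 over all eligible probes. In CD68 segments 24 of the 60 were above 0 and 36 below, and in non-immune segments 30 were above and 30 below. On this pooled scale the medians of the 60 thus lay near those of all eligible probes, with as many probes above 0 as below in the non-immune segments. The sign depended on the scale. In the edgeR fit with upper-quartile factors the medians were 0.117 in CD68 and 0.125 in non-immune segments, with 34 and 35 of the 60 above 0. Over all 1882 probes tested they were 0.142 and 0.137. The calls below are from that fit. In CD68 segments 1 of the 60 was called higher in injured than in healthy regions (1.28% of all probes tested) and none lower (1.70%). At an unadjusted p under 0.05 there were 13 of the 60 in either direction, and 296 of all 1882 probes. In non-immune segments 3 were called higher (1.91%) and 1 lower (4.41%), and 16 of the 60 were under 0.05 unadjusted, as were 439 of all 1882.

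The called CD68 probe was RTS0066800, which rose by 2.84 (log2 fold change, SE 0.697, edgeR adjusted p = 0.0250) from healthy to injured regions. All 5 injured segments lay above the healthy median of 22.9 CPM, which rested on 1 count in region 1. The groups overlapped, with injured region 8 at 83.6 CPM below healthy region 3 at 107 CPM. No probe of the 60 was called without healthy region 1 or 13 or injured region 5. Over all 1882 probes, 9, 7 and 9 were then called higher and 11, 22 and 22 lower. Without peri-injured region 9 or injured region 11, 2 of the 60 were called, 1 higher and 1 lower in injured regions. Over all probes it was 25 and 21 higher and 33 and 33 lower. In non-immune segments rank 4 rose by 1.94 (SE 0.393, edgeR adjusted p = 0.00304), rank 18 by 1.53 (SE 0.351, adjusted p = 0.00817) and rank 19 by 1.81 (SE 0.417, adjusted p = 0.00870). Rank 18 was at 93.1, 108 and 174 CPM in healthy, 865, 332, 578 and 800 in peri-injured and 225, 326, 292, 189 and 538 in injured non-immune segments. Rank 19 was at 63.7, 84.3 and 112 CPM in healthy, 871, 354, 548 and 626 in peri-injured and 191, 211, 257, 123 and 550 in injured segments. In the non-immune segments these 3 probes thus lay above every healthy region in all injured and peri-injured regions. In CD68 segments ranks 4 and 19 did not, with 95.1 CPM of rank 4 in injured region 11 against 115 in healthy region 1, and 111 CPM of rank 19 in injured region 8 against 139 in healthy region 13. Rank 48 went the other way and fell by 0.976 (SE 0.253, edgeR adjusted p = 0.0189) from healthy to injured non-immune segments. It was at 519, 518 and 685 CPM in healthy, 976, 739, 955 and 691 in peri-injured and 134, 486, 275, 172 and 285 in injured segments. Without region 1 or 3 the count of non-immune calls among the 60 was 1, and without injured region 5 it was 7. Over all probes the calls were 17 higher and 43 lower, 16 and 50, and 87 and 112.

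The 4 peri-injured regions did not contribute alike, which the pooled rule does not show. In CD68 segments the highest CPM of the 4 was in region 6 for 21 of the 60 probes, in region 9 for 10, in region 10 for 15 and in region 12 for 14. In non-immune segments it was in region 10 for 31, in region 6 for 19, in region 12 for 8 and in region 9 for 2. Over all 1882 probes, regions 6, 9, 10 and 12 led for 435, 493, 482 and 472 in CD68 segments. In non-immune segments they led for 455, 401, 563 and 463, so that region 10 led most often and region 9 least often there too. Regions 6 and 10 were also the deepest of the 4 in both compartments, with 93567 and 89506 counts in CD68 segments against 21955 and 33021 in regions 9 and 12. Pooled counts give deep regions more weight, and with each region weighted equally 46 of the 60 were chosen again. The study's text places regions 6 and 10 nearer to the injury and regions 9 and 12 farther from it. The mean CPM of the first pair was above that of the second for 45 of the 60 probes in CD68 (58.9% of all probes) and for 54 in non-immune segments (57.9%), and no test was made of 2 regions against 2. The part of depth in this order was not tested. The same region led in both compartments for 19 of the 60 (29.6% of all probes), or 18 after thinning, and 19 of 60 is 31.7%.

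Single probes ranged from an even to a concentrated pattern over the 4 regions. The median share of the leading region was 32.6% in CD68 and 30.0% in non-immune segments, against 36.2% and 29.6% over all eligible probes. Rank 20 was the most even in CD68 segments, with a share of 28.8%. It was at 545, 729, 715 and 545 CPM in regions 6, 9, 10 and 12, against 125 to 306 in the other 8 segments. In non-immune segments rank 20 was at 348, 336, 377 and 288 CPM in these regions and between 96.3 and 246 elsewhere, so that its groups were separate in both. Rank 32 was the most even in non-immune segments, with 172, 164, 174 and 174 CPM and a share of 25.5%. The other non-immune segments held 50.8 to 100 CPM of rank 32. In CD68 segments it was at 267, 91.1, 235 and 212 CPM, where region 9 had 2 counts and fell among the others, which ranged from 58.6 to 178.

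The injured regions were not uniform either. Regions 5 and 11 were both above regions 4, 7 and 8 for 28 of the 60 probes in CD68 (21.2% of all probes) and for 39 in non-immune segments (30.0%). This split was chosen after the values were seen, and it is given with no test. Regions 5 and 11 also had the highest totals of the injured CD68 segments, 119493 and 84152 against 71786 to 74139, while in non-immune segments region 5 had 350101, the second lowest of the 5, and region 11 had 498411, the highest. Background in injured regions 5 and 11 was 40.5% and 38.7% in CD68 segments, against 40.0%, 36.9% and 39.3% in regions 4, 7 and 8. In non-immune segments it was 37.5% and 38.1%, against 40.5%, 37.2% and 40.1%. The part of depth and of background in this split was not tested.

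The size of the excess was compared between the compartments in 1 fit over all 24 segments, which the choice did not set but did limit, since it asked for a large excess and a similar level in both. None of the 60 probes differed at an adjusted p under 0.05 in edgeR's quasi-likelihood test (2.66% of all probes tested were called in either direction). At an unadjusted p under 0.05 there were 2 of the 60 and 285 of all 1882 probes, and nothing is read from either count because of that limit. DESeq2 and limma also called none. With the region as a block, which pairs the segments of a region, none was called either, and the lowest adjusted p was 0.136. The CD68 excess minus the non-immune excess had a median of 0.19 over the 60 probes on the log2 scale, with 38 above 0, against -0.018 over all probes tested. With a median SE of 0.403, single probes could not be told from no difference after adjustment.

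Rank 51 had the largest difference in favour of CD68, 0.90 (SE 0.341, edgeR adjusted p = 0.178). It was at 289, 182, 268 and 212 CPM in peri-injured CD68 segments 6, 9, 10 and 12 and between 13.5 and 115 in the other 8. Non-immune segments held 104, 89.3, 130 and 104 CPM of it against 48.2 to 77.1. The groups were separate in both compartments, by a wider margin in CD68 segments. Rank 23 had the largest difference in favour of the non-immune compartment, -1.14 (SE 0.671, edgeR adjusted p = 0.438). Its non-immune level was 992 CPM in region 10 and 340, 179 and 139 in regions 6, 9 and 12, against 53.7 to 148 elsewhere. Region 10 gave 60.1% of that sum. In CD68 segments rank 23 was at 128, 91.1, 235 and 242 CPM in peri-injured regions 6, 9, 10 and 12 and between 68.8 and 111 in the other 8. Its groups overlapped in both compartments.

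At the edge of the choice, most of the probes overlapped between groups in CD68 segments. In CD68 segments the peri-injured values were 374, 45.5, 469 and 273 CPM for rank 58, against 80.9 to 285 elsewhere. They were 257, 319, 190 and 273 for rank 59, against 27.0 to 154, and 289, 182, 190 and 90.9 for rank 60, against 53.4 to 176. Rank 59 was separate there, and the other 2 were not. Just outside, rank 61 was at 502, 228, 670 and 363 CPM in peri-injured CD68 segments against 94.4 to 321 elsewhere. Rank 62 was at 107, 91.1, 145 and 151 CPM against 22.9 to 125, and rank 63 at 556, 273, 514 and 454 against 108 to 321. None of these 3 was separate in CD68 segments, so that ranks 58 to 60 and 61 to 63 looked alike in this respect apart from rank 59.

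Counting error set the limit in the shallow segments. The 60 probes had between 70 and 644 counts over the 12 CD68 segments (median 123.5) and between 444 and 5632 over all 24. In 6 CD68 segments 1 of the 60 had no count, and in 1 non-immune segment 1 had none. In CD68 region 9, where the total was lowest, a probe with no count could have been at up to 137 CPM.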

How the data were processed

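Spatial RNA profiles of 24 segments from 12 lung regions of 2 mice were used. The authors deposited unnormalized counts of each probe, made from the reads with the GeoMx NGS Pipeline (2.3.4 per the file headers) by alignment to probe barcodes and removal of duplicates by molecular identifier. A probe not listed in a file was read as 0. Regions were grouped by the labels. The supplementary segment annotation gives region 4 the tissue number of the control lung with an injured treatment, and it was used as injured. The study's methods give another tamoxifen dose and schedule than the labels.

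The rule, the probe ranks and all lists were chosen with earlier results of these data known. Counts were fitted with edgeR 4.0.16 (R 4.3.3), upper-quartile factors and 1 term per region class, over the 1882 probes with at least 60 CD68 counts, and called at a Benjamini-Hochberg adjusted p under 0.05. The design takes the class comparison within a compartment from the study's methods. The quasi-likelihood test gives no SE. The SE printed for edgeR is approximate, the size of the log2 fold change divided by the square root of the test's F statistic. The test was checked on simulated counts drawn independently for each segment. These held no effect of region or mouse, so that the check does not cover technical replicates of 1 mouse. For the background of a segment, the 2018 least abundant probes (10% of all) were averaged and scaled up to all probes. Both segments of a region come from 1 place, so region numbers pair them. Their deviations from class means correlated by 0.0239 to 0.236 (median 0.0996, 6 of 12 above 0.1), against a median of -0.0063 for different regions. Between segments of a class, chi-square per degree of freedom was 1.05 to 2.05 over 38 pairs, and no 2 segments held the same counts.

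Values are given for ranks 1 to 6, the 2 probes with most counts, those with the highest and lowest share in 1 peri-injured region, those with the largest and smallest compartment difference, ranks 58 to 63, and probes called between injured and healthy regions, added after the values were seen. Alternatives were TMM factors, DESeq2 1.42.0, limma 3.58.1 on log2 of normalized counts plus 1, the 6000 most abundant probes, no filter, thinning, pseudocounts of 5 and 50 CPM, equal region weights, background removal and leaving out each region. Plots used matplotlib 3.10.9 in Python 3.11.15. Sequences and gene names were not used here.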

Additional observations from a re-analysis of the deposited data

Results flagged for a closer look

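Of 64 groups of 4 or 5 segments, 3 had a segment farther from the others than Dixon's critical value allows, and chance alone flags about 1 group in 20. RTS0066800 was at 515 CPM in the CD68 segment of peri-injured region 12, far below the 1230 to 1304 CPM of the other 3 peri-injured CD68 segments. The total count of the CD68 segment of injured region 5 was 119493, against 71786 to 84152 in the other 4. Rank 32 was at 178 CPM in the CD68 segment of injured region 11, against 58.6 to 69.7 in the other 4.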

How the results depend on the processing

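Of 58 values recomputed under another setting, 18 moved, by more than 1.5 times for a count or by more than 1 SD between regions for a level. The other 40 moved less, and fits that left out a region are not counted here. None reversed, but most are counts, which cannot change sign, so that nothing is read from this. The compartment difference had 0 calls under each setting, which the choice limited. In the CD68 comparison of peri-injured with injured regions, 28 of the 60 probes were called. This became 18 by limma, 51 without a filter and 11 after thinning. Over all 1882 probes tested, 120 were called higher, or 82 by limma and 42 after thinning. Without a filter it was 432 of 20175. Against healthy regions, 9 CD68 calls became 16 with TMM factors, 17 among 6000 probes, 30 without a filter and 4 after thinning. Over all 1882 probes tested, 43 were called higher, or 62 with TMM factors and 19 after thinning. It was 74 of 6000, and 141 of 20175 without a filter. Of injured against healthy CD68 segments there was 1 call, higher in injured regions. With TMM factors, with DESeq2 and after thinning there were 2 each, 1 higher and 1 lower. Over all 1882 probes, 24 were called higher and 32 lower. Under these 3 settings it was 23 and 41, 18 and 32, and 12 and 13. In non-immune segments thinning left 29 of 44 calls against injured and 14 of 28 against healthy regions. Over all 1882 probes it gave 133 in place of 248 and 47 in place of 72 calls higher in peri-injured regions. Between injured and healthy non-immune segments limma gave 9 calls in place of 4. Over all probes limma called 98 higher and 111 lower in injured regions, in place of 36 and 83. Thinning removes counts by construction, and for the other settings the cause was not tested. Leaving out 1 region gave 17 to 31 and 3 to 12 calls among the 60 in CD68 segments against injured and healthy regions. In non-immune segments it gave 36 to 48 and 11 to 30. Over all 1882 probes, 68 to 139 and 13 to 53 were called higher in CD68 segments. The range was 182 to 279 and 31 to 80 in non-immune segments. For injured against healthy regions, leaving out 1 region gave 0 to 2 CD68 and 1 to 7 non-immune calls among the 60. Over all probes, 7 to 25 were called higher and 11 to 34 lower in CD68 segments. In non-immune segments it was 16 to 87 and 43 to 112. For the compartment difference none of the 60 was called throughout, against 12 to 50 higher and 0 to 6 lower over all probes. With the region as a replicate block 0 of the 60 differed between compartments, as without it, and the block could be fitted for that comparison only. The choice of the 60 shared 46 to 56 probes with that made without a region, 53 and 55 with pseudocounts of 50 and 5, 55 with TMM factors, 50 with background removed and 19 of the 31 that passed after thinning. Background removal and thinning of the summed level were added after seeing the data. With background removed the mean peri-injured sum was 2.98% in CD68 and 2.78% in non-immune segments. The non-immune gap in the regions left out was 0.485 and 0.484 with pseudocounts of 5 and 50. The main limits are 1 mouse per class and low CD68 counts.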
